A study of Mus musculus with 4 samples.

Results

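Cluster 0 is the largest of 14 clusters that the authors drew among the myeloid cells of atherosclerotic mouse aorta, and its cells carried the transcripts of Lyve1 resident-like macrophages. It was taken as the cells with the deposited cluster number 0, which are 635 of 3002 cells, or 21.2%. Its reference was 2 other macrophage clusters of similar depth, cluster 1 with 543 cells and cluster 2 with 347 cells. Every library came from 1 group, live CD45+ leukocytes sorted from the aortas of Apoe-/- mice after 13 weeks of western diet. CD45 is a surface protein of leukocytes, and mice without apolipoprotein E develop atherosclerotic plaques, so no healthy vessel, other diet or other genotype is part of these data. The series text counts 6 mice, and the titles give 2 biological replicates of 2 libraries each. The sources used here do not say how the mice were divided over these, so the spread between libraries may be technical.

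Resident macrophages of the artery wall lie largely in the adventitia, the outer coat, and most are maintained there locally with limited input from blood monocytes. They bind hyaluronan through LYVE-1, take up folate, haemoglobin complexes and dying cells through dedicated receptors, and are known for tending the surrounding tissue. In plaques they sit beside macrophages derived from recruited monocytes, among them lipid-laden foamy cells and cells that make interleukin 1β.

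The 33, 234, 125 and 243 cells of cluster 0 in libraries 1-1, 1-2, 2-1 and 2-2 were 14% (exact binomial 95% interval 9.82 to 19.1), 19% (16.9 to 21.3), 22.7% (19.3 to 26.5) and 24.7% (22.0 to 27.5) of the myeloid cells of those libraries. The mean was 20.1% ± 4.70 (SD, n = 4 libraries). Library 1-1 was the smallest, with 236 cells, and no cell barcode was shared between libraries. Cluster 0 cells held 240414 to 1018676 UMIs (unique molecular identifiers, tags that count captured transcripts) per library, with a median of 4404 per cell, against 5115 in cluster 1 and 4231 in cluster 2. The median share of mitochondrial UMIs was 3.75% in cluster 0, 4.47% in cluster 1 and 4.14% in cluster 2. Clusters 3 and 8, also macrophage clusters, had medians of 834 and 980 UMIs and are used below only for single levels. Levels are CPM, raw UMI counts pooled by cluster and biological replicate and scaled to a total of 1000000. The authors drew the clusters from these same counts, so differences between clusters are described by their size in each replicate and no test was run.

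The label Lyve1 resident-like macrophages rests on 5 markers, which stood higher in cluster 0 than in clusters 1 and 2. It was chosen with these data known, so the levels below describe the cluster and do not test the label. Lyve1, the hyaluronan receptor gene, stood at 737 and 805 CPM in the 2 replicates of cluster 0, against 12.5 and 18.2 CPM in cluster 1 and 291 and 352 CPM in cluster 2. Folr2, which encodes folate receptor β, stood at 855 and 953 CPM in cluster 0, against 40.5 and 58.7 in cluster 1 and 489 and 526 in cluster 2. Cd163, the receptor for haptoglobin-haemoglobin complexes, stood at 677 and 602 CPM in cluster 0, against 13.7 and 20.2 in cluster 1 and 421 and 431 in cluster 2. For these genes the replicates of cluster 0 lay above those of both other clusters without overlap. Maf, a transcription factor of resident macrophages, stood at 755 and 724 CPM in cluster 0, against 161 and 112 in cluster 1 and 397 and 403 in cluster 2. Timd4, which encodes a phosphatidylserine receptor for dying cells, was scarcer, at 48.3 and 69.9 CPM in cluster 0, against 1.79 and 2.02 in cluster 1 and 25.2 and 35.3 in cluster 2. Of the 14 clusters, cluster 0 had the highest mean level of Lyve1, Folr2, Cd163 and Maf and the second highest of Timd4. Cluster 3 came close for Folr2, at 881 ± 99.9 CPM (SD, n = 2) against 904 ± 69.7 CPM in cluster 0, a difference within the replicate spread. For Timd4 the order also lay within the spread, since cluster 10 stood at 67.4 ± 27.9 CPM and cluster 0 at 59.1 ± 15.2 CPM (SD, n = 2 each).

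**Figure D1:**
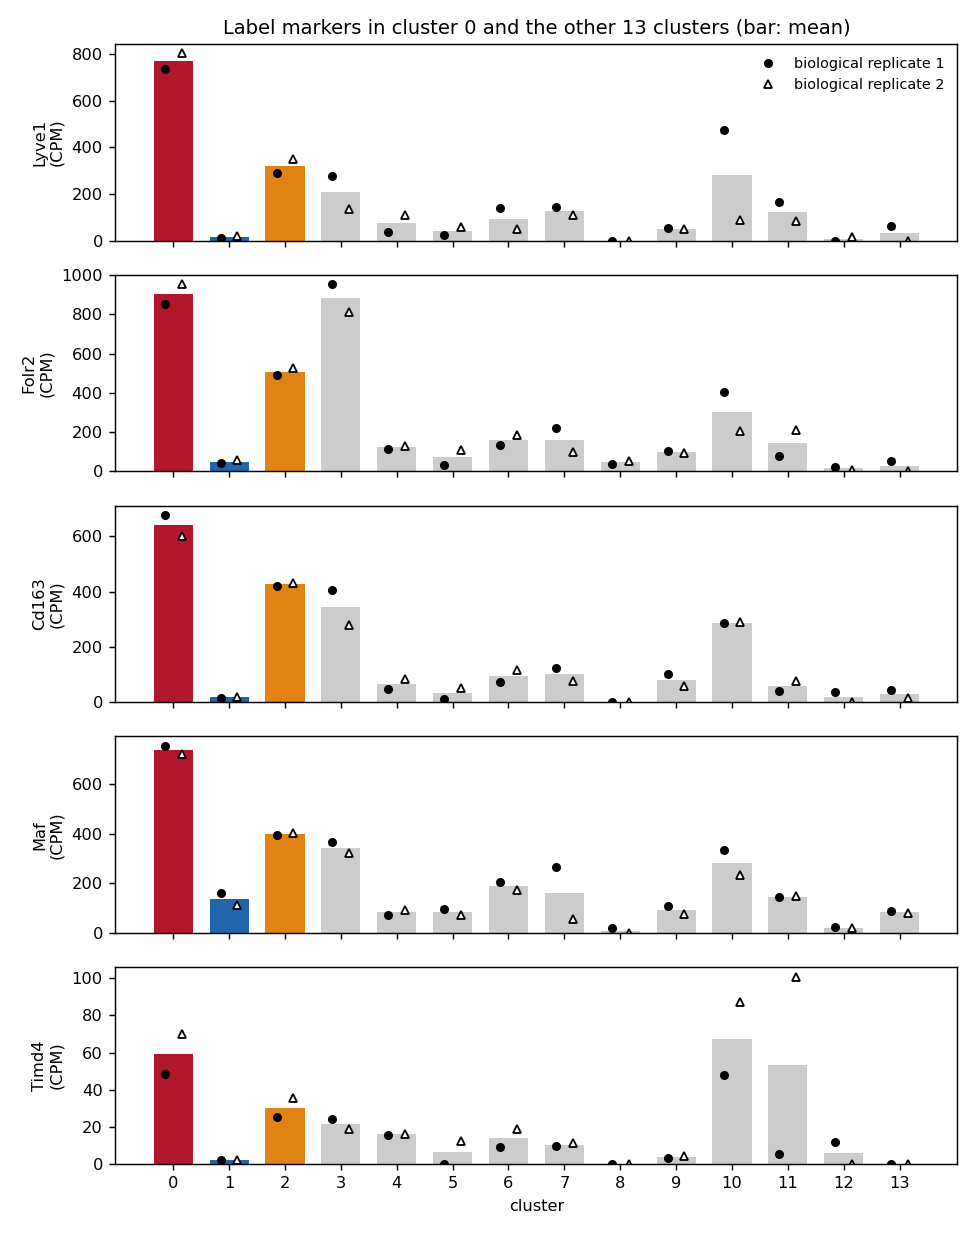
Level of the 5 label markers (CPM, one panel per gene, each axis from 0) in cluster 0 and the other 13 clusters. Bars are means, and the circle and triangle are the 2 biological replicates; cluster 0 is red, cluster 1 blue and cluster 2 orange. Cluster 0 has the tallest bar for Lyve1, Folr2, Cd163 and Maf.

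The 5 genes lie apart in the genome (GENCODE M21, GRCm38). Lyve1 spans chr7:110850607-110863239 on the minus strand, Folr2 chr7:101839988-101857194 on the minus strand, Cd163 chr6:124304656-124330527 on the plus strand, Maf chr8:115682942-115707794 on the minus strand and Timd4 chr11:46810800-46844332 on the plus strand. Since Maf is one of the markers, promoter windows of 250 bases before to 50 bases after the gene start (RefSeq, GRCm38.p6) were searched on both strands for the MAF half-site TGCTGA, which reads TCAGCA on the other strand. Of the 3 markers with a window, Folr2 and Timd4 held it, and 19.5% of all 32851 windows of that length hold it. A marker counted if any of its windows held the half-site, whereas 19.5% is a share of single windows. Printed 5′ to 3′ are the windows of Folr2 (chr7:101857141-101857440, minus strand, the first of 2 listed for the gene) and Timd4 (chr11:46810549-46810848, plus strand). The half-sites are in capitals. These genes are shown because, like Maf, both stood higher in cluster 0 than in clusters 1 and 2, though Timd4 was scarce. The capitals are a match of letters and no evidence of binding.
Folr2: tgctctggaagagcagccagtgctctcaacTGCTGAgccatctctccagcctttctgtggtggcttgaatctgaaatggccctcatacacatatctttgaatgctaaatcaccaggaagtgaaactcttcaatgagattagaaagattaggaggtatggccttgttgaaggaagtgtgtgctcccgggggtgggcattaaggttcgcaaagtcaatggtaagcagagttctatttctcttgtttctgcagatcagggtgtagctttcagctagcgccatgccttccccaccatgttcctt
Timd4: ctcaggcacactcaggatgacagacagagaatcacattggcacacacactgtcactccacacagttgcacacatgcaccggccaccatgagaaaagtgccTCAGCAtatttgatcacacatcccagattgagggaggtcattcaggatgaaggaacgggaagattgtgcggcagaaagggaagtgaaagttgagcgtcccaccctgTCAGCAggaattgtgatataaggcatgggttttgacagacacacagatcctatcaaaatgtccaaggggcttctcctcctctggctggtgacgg

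In single cells the markers were found together but not in every cell. To compare clusters at 1 depth, each cell was thinned to 2000 UMIs, which left out 30 of 635 cells of cluster 0, 22 of 543 of cluster 1 and 10 of 347 of cluster 2. Lyve1 had a UMI in 52.2% of cluster 0 cells (exact binomial 95% interval 48.2 to 56.3), in 1.54% of cluster 1 cells (0.665 to 3.00) and in 29.4% of cluster 2 cells (24.6 to 34.6). Without thinning the shares were 61.4%, 2.76% and 41.2%. Cluster 4, in which the dendritic genes Flt3 and Zbtb46 stood at 83.7 ± 2.10 and 26.9 ± 1.11 CPM (SD, n = 2) and whose cells should lack Lyve1, showed a Lyve1 UMI in 4.44% of cells (2.32 to 7.63) at the same thinned depth, from a median of 7226 UMIs before thinning, against 4525 in cluster 0. The Lyve1 share in cluster 1 was not told apart from that of cluster 4, as the intervals overlap. The shares in clusters 0 and 2 were above both.

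Maf had a UMI in 69.4% of thinned cluster 0 cells, against 19.4% in cluster 1, 49.9% in cluster 2 and 8.52% in cluster 4. Folr2 was found in 63.5%, 5.76%, 47.2% and 8.89% of the cells of those clusters, and Cd163 in 57.0%, 2.11%, 42.7% and 9.26%. Timd4 was found in 9.75% of cluster 0 cells (7.51 to 12.4), in 0 of 521 cluster 1 cells, in 4.75% of cluster 2 cells and in 2.59% of cluster 4 cells. Its intervals in clusters 2 and 4 overlap (2.74 to 7.60 and 1.05 to 5.27), so the share of cluster 2 is not told apart from that of cluster 4. The interval of cluster 2 lies above that of cluster 1 (0 to 0.706). At least 3 of the 5 markers were found in 53.7% of cluster 0 cells, 0.960% of cluster 1 cells, 27.6% of cluster 2 cells and 4.07% of cluster 4 cells. None of the 5 was found in 7.27% of cluster 0 cells at this depth, which is not a sign that those cells lack them.

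**Figure D2:**
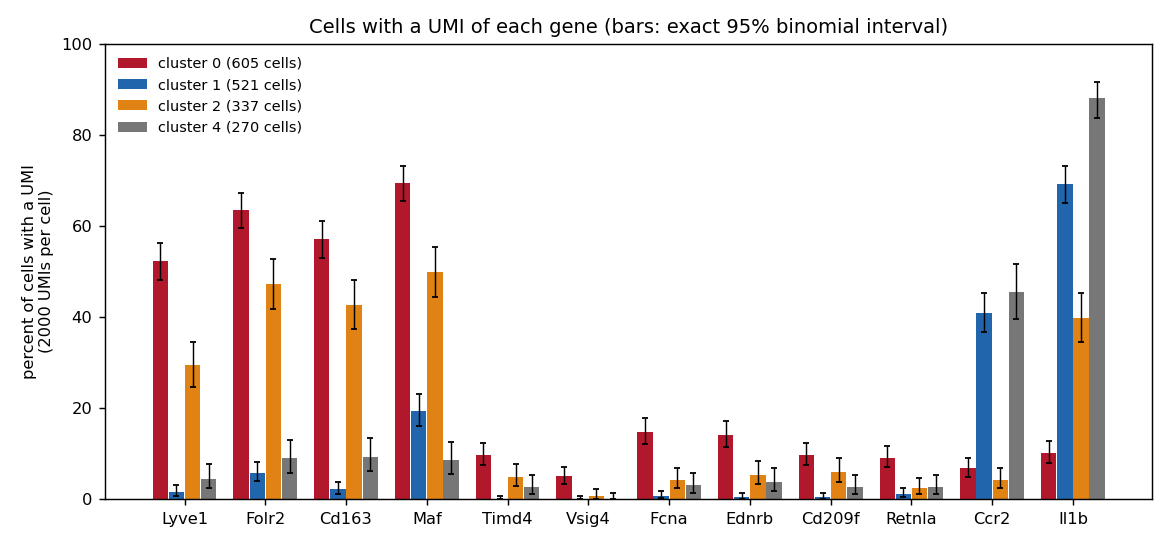
Percent of cells with at least 1 UMI of each gene after thinning every cell to 2000 UMIs, in clusters 0, 1, 2 and 4 (605, 521, 337 and 270 cells). Error bars are exact 95% binomial intervals and cover counting error only. Lyve1, Folr2, Cd163 and Maf have their tallest bars in cluster 0, and Ccr2 and Il1b have low bars there.

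Across all genes, fewer separated cluster 0 from cluster 2 than from cluster 1. A gene was counted as higher or lower when its log2 fold, computed on CPM plus 5, was at least 1 in the same direction in both biological replicates and its mean level reached 50 CPM in the higher cluster. Over cluster 1, 184 of 3003 genes at that level were higher in cluster 0 (6.13%) and 160 were lower (5.33%). TMM scaling gave 147 higher and 185 lower than in cluster 1. Over cluster 2, 40 of 2921 genes were higher (1.37%) and 77 were lower (2.64%). The median log2 fold of all these genes was -0.00 over cluster 1 and 0.03 over cluster 2. Against both clusters together, 29 of 2725 genes were higher in cluster 0 (1.06%) and 33 of 2264 were lower (1.46%), and these 29 and 33 genes make up 72.5% and 42.9% of those counted over cluster 2. TMM scaling, which lowered the median log2 fold to -0.14 over cluster 1 and -0.07 over cluster 2, turned the split against both clusters into 17 higher and 46 lower. The 2 comparisons share the cells of cluster 0, so their values are given side by side only.

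Genes of resident macrophages separated cluster 0 from cluster 1 and for the most part not from cluster 2. Of 29 listed genes, 26 reached 50 CPM, and 23 were higher in cluster 0 than in cluster 1 and none lower, with a median log2 fold over all 29 of 2.78. Over cluster 2, 4 were higher (Lyve1, Vsig4, Fcna and Ednrb) and 1 was lower (Il10), with a median of 0.60 over all 29. The list was written with earlier results of these cells known, and it holds the label markers. F13a1, the coagulation factor XIII A chain found in tissue macrophages, stood at 1123 and 1238 CPM in cluster 0, against 89.3 and 74.8 in cluster 1 and 769 and 806 in cluster 2. Mrc1, the mannose receptor, stood at 1457 and 1640 CPM in cluster 0, against 402 and 338 in cluster 1 and 1477 and 1703 in cluster 2. Mrc1 thus had like levels in clusters 0 and 2. Cbr2, a carbonyl reductase, was similarly placed, with log2 folds of 3.53 over cluster 1 and 0.15 over cluster 2. Summed over the list, these genes gave 1.85% and 2.02% of the UMIs of cluster 0, against 0.460% and 0.470% in cluster 1 and 1.49% and 1.59% in cluster 2.

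Receptors for uptake followed the same order. Of 22 scavenger and endocytic receptors matched, 9 were higher in cluster 0 than in cluster 1 and none lower, and over cluster 2 Lyve1 was the only one higher, with list medians of 0.43 and 0.22. Cd209f, a C-type lectin, had 115 and 211 CPM in cluster 0, against 1.19 and 10.8 in cluster 1 and 58.4 and 92.6 in cluster 2. Colec12, a scavenger receptor C-type lectin, had log2 folds of 3.32 and 0.65. Among 17 receptors and bridging proteins for dying cells, 5 were higher than in cluster 1 (Timd4, Gas6, Pros1, Stab1 and Cd36), 1 was lower (Axl), and none differed from cluster 2 by the rule, with list medians of 0.32 and 0.03. Gas6, the bridging ligand of the TAM receptors, stood at 454 and 612 CPM in cluster 0, against 60.7 and 86.3 in cluster 1 and 404 and 527 in cluster 2. Its receptor Axl went the other way, at 47.5 and 52.5 CPM in cluster 0, against 171 and 175 in cluster 1 and 75.7 and 79.4 in cluster 2.

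Complement and haem genes added named differences rather than a shift of whole lists. Of 16 complement genes, 4 were higher than in cluster 1, among them C4b, Cfp and Vsig4, and 1 higher than in cluster 2 (Vsig4). None was lower, and list medians were 0.41 and 0.11. Vsig4 did not count over either cluster after thinning or with cells weighted equally. C4b, which encodes complement C4, stood at 531 and 561 CPM in cluster 0, against 58.9 and 43.1 in cluster 1 and 383 and 327 in cluster 2. Cfp, properdin, counted over cluster 1 with a log2 fold of 1.14, but not without library 1-2 or without library 2-1 (1.04 and 1.05). C1qa, a subunit of C1q, was even across clusters, at 7609 and 7598 CPM in cluster 0, against 6163 and 6009 in cluster 1 and 7130 and 6853 in cluster 2. Of 14 iron and haem genes, Hmox1, Cd163 and Trf were higher than in cluster 1 and Hmox1 alone was higher than in cluster 2, with none lower and medians of 0.61 and 0.08 over all 14, or 0.18 and 0.07 over the 9 at 50 CPM. As a share of UMIs the list was lower, at 2.59% and 2.57% in cluster 0, against 3.29% and 3.53% in cluster 1 and 2.88% and 2.83% in cluster 2. Fth1, the ferritin heavy chain that stores iron, stood at 11525 and 10726 CPM in cluster 0, against 22036 and 23976 in cluster 1 and 16433 and 15240 in cluster 2, and counted as lower than in cluster 1 under TMM scaling, with cells weighted equally and without library 1-2. Hmox1, haem oxygenase 1, which opens the haem ring that CD163 helps to import, stood at 1091 and 1350 CPM in cluster 0, against 159 and 159 in cluster 1 and 487 and 652 in cluster 2. Trf (transferrin) over cluster 1, and Hmox1 over cluster 2, sat near the threshold with log2 folds of 1.10 and 1.10, and without library 2-1 the fold of Hmox1 was 1.02 and no longer counted. Under TMM scaling neither counted, with log2 folds of 0.98 for Trf and 1.00 for Hmox1. After thinning neither counted either, with log2 folds of 1.09 for Trf and 0.98 for Hmox1.

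**Figure D3:**
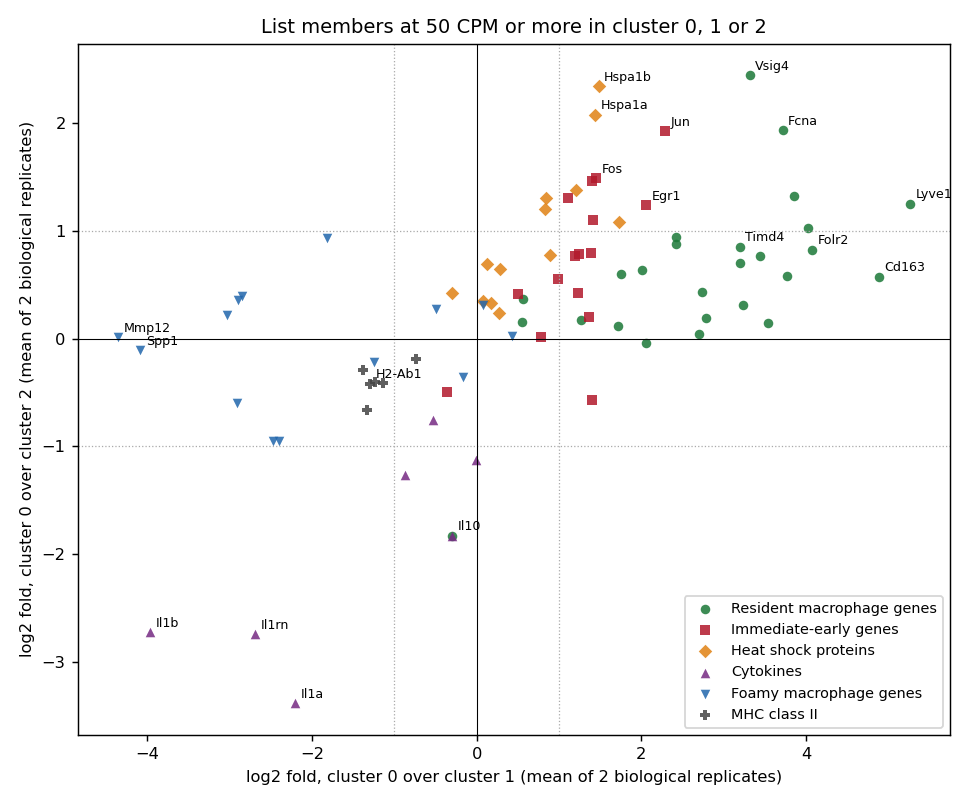
Log2 fold of cluster 0 over cluster 1 (x axis) against log2 fold over cluster 2 (y axis), each the mean of 2 biological replicates, for members of 6 gene lists at 50 CPM or more in cluster 0, 1 or 2. Dotted lines mark log2 folds of -1 and 1. Most resident macrophage genes lie far to the right near or above the horizontal axis, cytokines lie low, and foamy macrophage genes lie to the left; the axes share cluster 0, so a slope in this plot is no result.

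Of the 29 genes higher than in both clusters, 4 were on the resident list, 6 on the immediate-early list and 2 on the heat shock list, and 17 were on none of these 3. By smallest fold over both replicates and both clusters, the 12 leading genes were Jun, Fos, Ier2, Hspa1b, Retnla, Txnip, Fcna, Vsig4, Dusp6, Selenbp1, Rcn3 and Gm4951. Fcna, which encodes ficolin A, a lectin of the complement pathway, stood at 84.3 and 122 CPM in cluster 0, against 3.57 and 2.70 in cluster 1 and 22.6 and 23.1 in cluster 2. Vsig4, the complement receptor CRIg of tissue macrophages, stood at 29.5 and 86.2 CPM in cluster 0, against 0 and 1.35 in cluster 1 and 2.66 and 8.82 in cluster 2. Both genes marked a minority of cells: at 2000 UMIs, Fcna was found in 14.7% of cluster 0 cells (4.15% in cluster 2, 2.96% in cluster 4) and Vsig4 in 4.96% (0.593% and 0). Vsig4 rests on 205 UMIs in cluster 0 against 2 in cluster 1, a ratio of pooled CPM of 102 (95% counting interval 27.9 to 847). Its level was uneven over libraries, from 18.4 CPM in library 1-2 to 114 CPM in library 2-2. Without library 2-2, Vsig4 fell short of 50 CPM while its log2 fold over cluster 2 was 2.23. Nor did it count over clusters 1 and 2 after thinning (log2 folds of 3.23 and 2.09). The same held with cells weighted equally (3.09 and 2.17).

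Retnla, a secreted protein of alternatively activated macrophages, stood at 816 and 1017 CPM in cluster 0, against 102 and 140 in cluster 1 and 194 and 204 in cluster 2. Its UMIs came from few cells, with a UMI in 9.09% of cluster 0 cells, 1.15% of cluster 1 cells and 2.37% of cluster 2 cells at 2000 UMIs. Ednrb, the endothelin receptor B gene, had log2 folds of 3.85 and 1.33 and was found in 14% of cluster 0 cells, but over cluster 2 it did not count without library 2-1 or under TMM scaling. Txnip, the inhibitor of thioredoxin, stood at 690 and 960 CPM in cluster 0, against 152 and 142 in cluster 1 and 175 and 236 in cluster 2. It was found in 71.9% of cluster 0 cells, 19.6% of cluster 1 cells and 25.8% of cluster 2 cells. Dusp6, a phosphatase of ERK, had log2 folds of 1.71 and 1.78. Rcn3, an endoplasmic reticulum calcium-binding protein, and Selenbp1 reached only 55.7 to 71.2 CPM in either replicate of cluster 0, and neither counted over cluster 2 without library 1-2 (log2 folds of 1.15 and 0.99); Selenbp1 did not count without library 2-1 either (1.24). Gm4951 had 51.6 and 68.8 CPM in cluster 0, against 4.76 and 4.72 in cluster 1 and 15.9 and 25.4 in cluster 2, and shares 3.24% of the 31-base runs of its last 400 transcript bases with another gene. With a pseudocount of 20 CPM, Gm4951, Rcn3 and Selenbp1 did not count over cluster 2 (log2 folds of 0.98, 1.08 and 1.04).

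Immediate-early genes, which cells switch on within minutes of a stimulus, including the handling of tissue, took a larger share of RNA in cluster 0 than in any other cluster. They gave 5.65% and 6.17% of its UMIs, against 2.29% and 2.44% in cluster 1 and 3.52% and 3.64% in cluster 2. Of 17 such genes, 12 were higher than in cluster 1 and 6 higher than in cluster 2 (Fos, Jun, Egr1, Atf3, Ier2 and Klf6), with none lower and medians of 1.25 and 0.77. Jun, an AP-1 subunit, stood at 7174 and 8071 CPM in cluster 0, against 1402 and 1729 in cluster 1 and 2055 and 1942 in cluster 2. Fos, its partner in AP-1, stood at 7609 and 7891 CPM in cluster 0, against 2823 and 2832 in cluster 1 and 2808 and 2697 in cluster 2. All 4 libraries of cluster 0 were close to each other, from 7004 to 8091 CPM for Jun and from 7556 to 8201 CPM for Fos. Without library 1-2 the count over cluster 2 was 4, since Atf3 and Klf6 dropped out, and TMM scaling also gave 4; Egr1 over cluster 2 did not count without library 2-1 (log2 fold 1.19), nor Ier2 over cluster 1 without library 1-2 (1.13). Nr4a1, which codes for a nuclear receptor induced in the same way, was not among them, at 425 and 316 CPM in cluster 0, against 402 and 550 in cluster 1 and 543 and 492 in cluster 2. Klf2, a transcription factor that restrains inflammatory genes, stood at 1521 and 2547 CPM in cluster 0, against 514 and 597 in cluster 1 and 712 and 687 in cluster 2. Over cluster 2 it did not count without library 1-2 (log2 fold 1.17), under TMM scaling (1.39) or with 2-fold required in each of the 4 libraries (1.44).

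Heat shock genes were next. They gave 2.23% and 1.94% of the UMIs of cluster 0, against 1.22% and 1.44% in cluster 1 and 1.07% and 0.965% in cluster 2. Of 13 genes, 2 were higher than in cluster 1 (Hspa1a and Hspa1b) and 5 higher than in cluster 2 (with Hsph1, Dnajb1 and Hsp90aa1), with none lower and medians of 0.83 and 0.77. Hspa1a, an inducible HSP70, stood at 4714 and 5014 CPM in cluster 0, against 1451 and 2209 in cluster 1 and 1106 and 1185 in cluster 2. Its neighbour Hspa1b stood at 2848 and 2601 CPM, against 852 and 1108 in cluster 1 and 574 and 493 in cluster 2. Over their last 400 transcript bases, which were examined because Hspa1a and Hspa1b are close copies, neither shares a 31-base run with another annotated gene. Both lists took their highest mean share in cluster 0. So did the resident genes, at 1.93% ± 0.120, against 1.75% ± 0.137 in the shallow cluster 3 (SD, n = 2 each), a difference within the replicate spread. The part of both lists in the other differences was not tested. Leaving immediate-early, heat shock and mitochondrial genes out of the total, an alternative chosen after seeing the data, only rescales the other genes. It raised the median log2 fold to 0.08 over cluster 1 and 0.09 over cluster 2, so genes already higher could hardly drop out. The 23 resident genes higher than in cluster 1 and 4 higher than in cluster 2 under it therefore do not test the part of those lists. Dnajb1, an HSP70 co-chaperone, no longer counted over cluster 2 without library 1-2 (log2 fold 1.09), nor did Hsph1 without library 2-2.

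The promoters of Hspa1a (chr17:34972107-34972406, minus strand) and Hspa1b (chr17:34959189-34959488, minus strand) were compared because both genes were higher than in clusters 1 and 2, and that of Jun (chr4:95052173-95052472, minus strand) is shown as the leading immediate-early gene. The windows of the HSP70 pair are identical at 296 of 300 bases, or 98.7%. Each holds 1 match to the heat shock element, searched for as the letters GAANNTTC, which are their own reverse complement. The match starts 104 bases before the gene start, and Jun holds 1 match starting 128 bases before. The element is in capitals below, and 7.86% of all windows of that length hold it. Of the 29 genes higher than in both clusters, 21 have a window and 3 of these (Hspa1a, Hspa1b and Jun) hold the element. The windows of the HSP70 pair are near-identical, so they are not independent matches. The AP-1 site TGANTCA was held by 2 of the same 21 genes, against 7.81% of all windows, and not by the Jun window. A gene counted if any of its windows held the letters searched for, whereas 7.86% and 7.81% are shares of single windows. These are matches of letters and no evidence of binding.
Hspa1a: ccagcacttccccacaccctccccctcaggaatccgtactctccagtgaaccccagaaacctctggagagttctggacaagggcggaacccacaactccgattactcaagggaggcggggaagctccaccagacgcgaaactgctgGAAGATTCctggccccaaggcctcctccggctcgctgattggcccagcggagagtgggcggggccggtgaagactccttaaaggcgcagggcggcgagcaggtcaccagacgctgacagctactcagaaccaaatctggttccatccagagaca
Hspa1b: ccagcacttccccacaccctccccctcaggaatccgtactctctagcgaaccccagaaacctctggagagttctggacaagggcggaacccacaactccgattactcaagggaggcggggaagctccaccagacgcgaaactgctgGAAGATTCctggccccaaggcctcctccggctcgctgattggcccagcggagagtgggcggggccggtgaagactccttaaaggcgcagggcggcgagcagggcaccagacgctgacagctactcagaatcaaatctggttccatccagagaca
Jun: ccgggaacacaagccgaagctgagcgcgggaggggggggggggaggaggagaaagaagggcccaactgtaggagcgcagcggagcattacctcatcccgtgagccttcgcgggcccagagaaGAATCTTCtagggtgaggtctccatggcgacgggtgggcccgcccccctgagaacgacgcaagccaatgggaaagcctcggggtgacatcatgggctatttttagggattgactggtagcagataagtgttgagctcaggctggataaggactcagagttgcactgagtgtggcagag

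Transcripts of several inflammatory cytokines were lower in cluster 0 than in cluster 1 or 2. Of 13 cytokine genes, 2 were lower than in cluster 1 (Il1b and Il1rn) and 6 lower than in cluster 2 (with Il1a, Il10, Tnf and Osm), with none higher and medians of -0.30 and -0.76. Il1b, interleukin 1β, stood at 381 and 99.4 CPM in cluster 0, against 3417 and 2857 in cluster 1 and 1836 and 951 in cluster 2. At 2000 UMIs it was found in 10.1% of cluster 0 cells, 69.3% of cluster 1 cells and 39.8% of cluster 2 cells. Il1b is also among the genes that differed between the replicates of cluster 0, and neither replicate overlapped the other clusters. Il1rn, the antagonist of the same receptor, stood at 40.1 and 23.5 CPM in cluster 0, against 262 and 196 in cluster 1 and 280 and 197 in cluster 2. Il10, an anti-inflammatory cytokine, was also lower than in cluster 2, at 95 and 57.6 CPM in cluster 0, against 72.6 and 117 in cluster 1 and 290 and 263 in cluster 2, but without library 1-2 its log2 fold was -0.87 and it did not count. Tnf, tumour necrosis factor, stood at 333 and 326 CPM in cluster 0, against 282 and 388 in cluster 1 and 705 and 741 in cluster 2. Tnf therefore overlapped between clusters 0 and 1.

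Further genes were lower than in both clusters. The 8 leading ones, with the cytokines, were Tnip3, Il1b, Areg, Il1rn, Bcl2a1d, Dusp2, Ptgs2 and Itpkb. Tnip3, an NF-κB inhibitor induced by the pathway, stood at 10.6 and 21.4 CPM in cluster 0, against 301 and 301 in cluster 1 and 224 and 244 in cluster 2. Areg, the growth factor amphiregulin, stood at 4.91 and 5.10 CPM in cluster 0, against 130 and 127 in cluster 1 and 59.8 and 103 in cluster 2. Ptgs2, cyclooxygenase 2, stood at 116 and 31.1 CPM, against 418 and 231 in cluster 1 and 549 and 257 in cluster 2. Nfkb1, Rel and Nlrp3, which code for 2 NF-κB subunits and an inflammasome sensor, were among the 33 genes, with log2 folds over cluster 1 of -1.31, -1.08 and -1.58. Bcl2a1d is uncertain, since 97.0% of the 31-base runs at its 3′ end occur in its near-identical copies. Dusp2, a phosphatase of MAP kinases, had log2 folds of -2.02 and -1.88, and over cluster 2 it did not count without library 1-2, where its log2 fold was -1.35.

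Chemokines split by partner. Of 20 ligand genes, 7 were higher than in cluster 1 (Ccl2, Ccl6, Ccl7, Ccl8, Ccl9, Ccl24 and Pf4) and 1 lower (Cxcl16), whereas over cluster 2 Ccl6 was higher and Cxcl1 lower, with medians of 0.52 and -0.49. Ccl2 and Ccl7 did not count over cluster 1 without library 1-2, nor Ccl7 without library 2-1, nor Ccl9 under TMM scaling. Ccl8, a monocyte attractant of resident macrophages, stood at 965 and 784 CPM in cluster 0, against 102 and 76.2 in cluster 1 and 701 and 693 in cluster 2. Ccl24, eotaxin 2, stood at 179 and 351 CPM, against 3.57 and 12.1 in cluster 1 and 130 and 285 in cluster 2. Ccl2, the main ligand of CCR2, lay between the other clusters, at 1792 and 1955 CPM in cluster 0, against 760 and 886 in cluster 1 and 3515 and 3611 in cluster 2. Chemokines together gave 2.73% and 2.72% of cluster 0 UMIs, against 1.58% and 1.70% in cluster 1 and 4.16% and 4.43% in cluster 2. Ccl6, a CC chemokine of myeloid cells, stood at 1489 and 1162 CPM in cluster 0, against 455 and 306 in cluster 1 and 664 and 527 in cluster 2. Over cluster 2 it did not count without library 2-1 (log2 fold 1.07) or with cells weighted equally (1.03).

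Genes of foamy macrophages were low in cluster 0. Of 15 genes, 10 were lower than in cluster 1 (Itgax not without library 1-2, where its log2 fold was -2.68) and none differed from cluster 2 by the rule, with medians of -2.39 and 0.02. Lgals3, galectin 3, stood at 315 and 226 CPM in cluster 0, against 2327 and 2116 in cluster 1 and 242 and 216 in cluster 2. Spp1, osteopontin, stood at 114 and 20.4 CPM, against 1120 and 765 in cluster 1 and 67.7 and 43.0 in cluster 2, and 1 cell held 40.2% of its UMIs in cluster 0. Trem2, a lipid receptor, was not absent, at 281 and 277 CPM in cluster 0, against 624 and 716 in cluster 1 and 288 and 365 in cluster 2. Of 20 lysosomal genes, 19 reached 50 CPM. Of these, 2 were lower than in cluster 1, among them Ctss, cathepsin S, and none differed from cluster 2. Over all genes, 5.33% were lower than in cluster 1. Medians were -0.26 and 0.11 over all 20. Of 11 sterol genes matched, Abcg1, a cholesterol exporter, was lower than in cluster 1 and none differed from cluster 2. Medians were -0.24 and 0.12 over all 11. Over the 4 and 3 genes at 50 CPM they were 0.18 and 0.16, so the sign over cluster 1 rests on scarce genes.

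MHC class II genes, which present peptides to CD4 T cells, were lower than in cluster 1. Of 10 genes, 5 were lower (H2-Aa, H2-Ab1, H2-Eb1, H2-DMb1 and Cd74) and none higher, and none differed from cluster 2, with medians of -0.99 and -0.30. H2-Ab1 stood at 3245 and 3612 CPM in cluster 0, against 8757 and 8055 in cluster 1 and 4539 and 4606 in cluster 2. Folds of these genes lay just past the threshold, and without library 2-1 only 1 of the 5 counted, with log2 folds of -1.17 for H2-Ab1 and -1.13 for H2-Aa. Ccr2, the receptor that brings monocytes from blood, stood at 96.6 and 49.5 CPM in cluster 0, against 425 and 403 in cluster 1 and 29.2 and 27.6 in cluster 2. Another monocyte gene, Ly6c2, stood at 16.4 and 3.06 CPM in cluster 0, against 7.14 and 10.1 in cluster 1 and 3.98 and 0 in cluster 2.

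**Figure D4:**
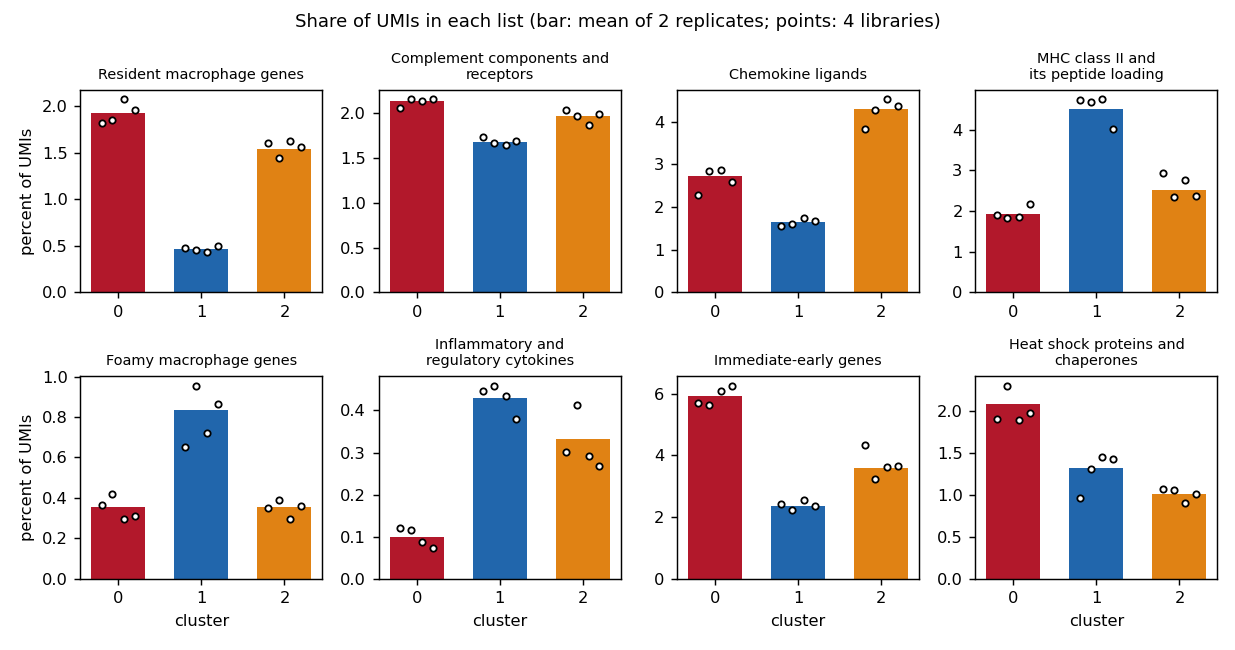
Percent of all UMIs of clusters 0, 1 and 2 that fall in each of 8 gene lists. Bars are means of 2 biological replicates and points are the 4 libraries; each panel has its own axis from 0. Cluster 0 is highest for resident, complement, immediate-early and heat shock genes and lowest for cytokine and MHC class II genes, between the other 2 for chemokines and level with cluster 2 for foamy macrophage genes.

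Growth factors for wall cells and lineage transcription factors gave smaller sets. Of 15 growth factor genes, Gas6 and Bmp2 were higher than in cluster 1, and Pdgfa, Pdgfb, Vegfa and Areg were lower. Over cluster 2, Pdgfa, Hbegf and Areg were lower. Medians were 0.40 and -0.04 over all 15, and -0.02 and -0.35 over the 10 at 50 CPM. Bmp2, Pdgfa and Pdgfb did not count over cluster 1 without library 1-2, which left 1 higher and 2 lower. Hbegf, a ligand of the EGF receptor, stood at 34.4 and 31.1 CPM in cluster 0, against 27.4 and 20.2 in cluster 1 and 175 and 254 in cluster 2. Of 24 transcription factors, Maf, Nr3c1, Tcf4 and Klf2 were higher and Runx3 lower than in cluster 1, and over cluster 2 Klf2 was higher and Bach1 and Runx3 lower, with medians of 0.57 and 0.06. Over cluster 1, Nr3c1 did not count without library 1-2 or under TMM scaling, nor Tcf4 under TMM scaling. Bach1, the repressor of Hmox1, stood at 190 and 198 CPM in cluster 0, against 252 and 264 in cluster 1 and 462 and 537 in cluster 2. Runx3 over cluster 2 did not count without library 1-1 or without library 2-1 (log2 folds of -1.10 and -1.13). Of 13 interferon-stimulated genes, 7 reached 50 CPM in each comparison. Ifit3 alone was higher than in cluster 1 and Rsad2 alone higher than in cluster 2. Over all genes, 6.13% and 1.37% were higher in those comparisons. Medians were 0.83 and 0.85 over all 13, and 0.53 and 0.64 over the 7. Rsad2, viperin, stood at 70.4 and 135 CPM in cluster 0, against 47.6 and 41.1 in cluster 1 and 26.6 and 18.7 in cluster 2, and 1 cell held 43.0% of its UMIs in cluster 0. It did not count without library 1-2 (log2 fold 1.76). Of 12 cell cycle genes, 1 reached 50 CPM in cluster 0 or 1 and 0 did so in cluster 0 or 2, too few for a count of differences. Mki67, a marker of dividing cells, stood at 22.1 and 11.7 CPM in cluster 0, against 40.5 and 22.2 in cluster 1 and 49.1 and 45.2 in cluster 2, and counted as lower than in cluster 2 without library 1-1.

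MHC class II varied widely among the cells of cluster 0. After thinning to 2000 UMIs, the list took a median of 1.05% of a cell's UMIs, with 25th and 75th percentiles of 0.1% and 3.5%, against a median of 5.05% (1.40% to 7.45%) in cluster 1 and 1.95% (0.150% to 4.30%) in cluster 2. No UMI of the 10 genes was found in 84 of 605 cells (13.9%; 12.9% to 15% over the 4 libraries), against 27 of 521 cells of cluster 1 (5.18%) and 39 of 337 of cluster 2 (11.6%). At the other end, 192 cells of cluster 0 (31.7%) gave at least 3% of their UMIs to the list, against 64.1% in cluster 1 and 37.4% in cluster 2. Resident genes were more even, with quartiles of 1.20% and 2.40% around a median of 1.80% in cluster 0, against a median of 0.400% in cluster 1 and 1.40% in cluster 2. Immediate-early genes had a median of 5.80% in cluster 0, against 1.85% in cluster 1 and 3.25% in cluster 2, with library medians in cluster 0 of 5.55% to 6.25%. The lower quartile of cluster 0, 4.10%, was above the upper quartile of cluster 1, 2.95%.

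**Figure D5:**
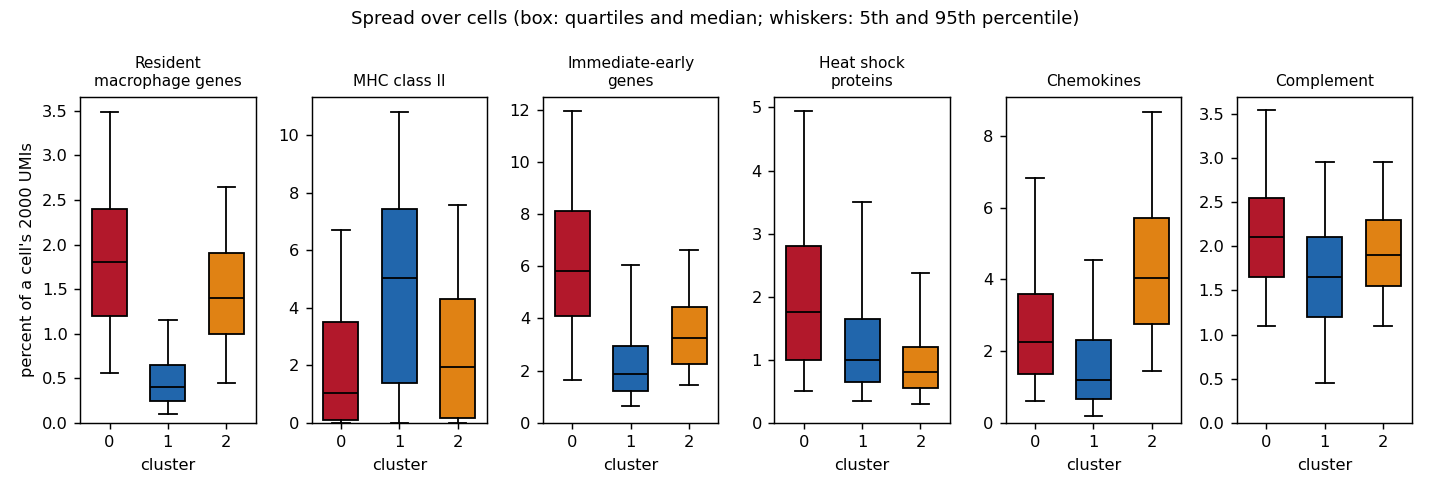
Percent of a cell's 2000 UMIs in each of 6 gene lists, over cells of clusters 0, 1 and 2 (605, 521 and 337 cells). Boxes give quartiles and the median, whiskers the 5th and 95th percentiles; each panel has its own axis from 0. In cluster 0 the MHC class II box reaches down to 0.1% and up to 3.5%, and the immediate-early box lies above that of cluster 1 and overlaps the top of that of cluster 2.

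Several genes differed in level between cluster 0 cells with and without a Lyve1 UMI at 2000 UMIs. There were 128 and 188 such cells in the 2 replicates and 123 and 166 without. The MHC class II list summed to 15750 and 15617 CPM in cells with Lyve1, against 22764 and 28518 CPM in cells without. Folr2 stood at 1031 and 1263 CPM in cells with Lyve1, against 569 and 428 in cells without, and Fcna at 148 and 178 CPM, against 20.3 and 21.1. Other genes went opposite ways in the replicates: Vsig4 stood at 11.7 and 138 CPM with Lyve1, against 32.5 and 6.02 CPM without, and Hmox1 at 1062 and 1705 CPM, against 1098 and 955 CPM. Immediate-early genes were nearer to even, at 57039 and 61141 CPM with Lyve1, against 63496 and 68618 CPM without. A Lyve1 UMI also depends on chance at this depth, so these are groups of cells and not types, and cells of 1 library are not replicates. The 59 cells with a Timd4 UMI held no Ccr2 UMI in 118000 UMIs, against 82 Ccr2 UMIs in the 546 cells without Timd4 (75.1 CPM). By cell, Ccr2 was found in 0 of 59 cells with Timd4 (95% interval 0 to 6.06%), against 41 of 546 without (7.51%, 5.44 to 10.0%), and these intervals overlap.

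Markers of other cell types were low in cluster 0, apart from those carried by single cells. LYVE-1 also marks lymphatic endothelium, but of 6 lymphatic markers Flt4, Mmrn1 and Reln had 0 UMIs among 3182509, which allows up to 0.943 CPM each, and the 6 together had 28 UMIs (8.80 CPM), against 34.1 CPM in cluster 1 and 15.1 CPM in cluster 2. Endothelial markers summed to 8.17 CPM, against 13.3 and 4.22 CPM in those clusters. Fibroblast markers summed to 84.8 CPM, against 73.3 and 95.2 CPM. Dendritic cell markers summed to 12.3 CPM in cluster 0, against 69.2 and 15.1 CPM, and smooth muscle markers to 11.3 CPM, against 4.43 and 6.02 CPM. T cell markers had 3 UMIs, with Cd3e and Cd3d at 0, NK cell markers had 1 UMI, and mast cell markers had 0. Monocyte markers summed to 101 CPM, against 518 CPM in cluster 1 and 34.9 CPM in cluster 2, and neutrophil markers to 72.3 CPM, against 50.3 and 98.2 CPM; their part in the differences above was not tested. Macrophage markers were present in all 635 cells at 3 UMIs or more, with Adgre1 (F4/80) at 599 and 570 CPM in cluster 0, against 556 and 529 in cluster 1 and 704 and 556 in cluster 2. B and plasma cell markers summed to 206 CPM in cluster 0, against 21.8 and 12 CPM, and 603 of these 655 UMIs were Jchain from 1 cell of library 1-2. Erythroid markers summed to 1387 CPM, against 2243 and 25.9 CPM, with 3 UMIs or more in 2 cells of cluster 0. The 3 nuclear RNAs gave 2.32% of UMIs, against 1.87% in cluster 1 and 2.20% in cluster 2.

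The 2 replicates of cluster 0 were alike over genes, with Pearson r of 0.963 across genes of log2(CPM + 5); genes are not independent replicates. Of 2902 genes at 50 CPM or more in a replicate, 19 were at least 2-fold apart (0.655%). For 6 of these, 93.0% to 100% of the UMIs came from 1 cell, the haemoglobin genes Hbb-bs, Hbb-bt, Hba-a1 and Hba-a2 from a cell of library 1-1 and Jchain and Slpi from a cell of library 1-2. Ccl12, a monocyte-attracting chemokine, was higher in both libraries of replicate 2, at 1629 and 1424 CPM, against 641 and 664 CPM in replicate 1. In cluster 2 it likewise stood at 1669 CPM in replicate 2 and 871 CPM in replicate 1, and in cluster 1 at 561 and 488 CPM. Pla2g2d, a secreted phospholipase A2, stood at 111 and 103 CPM in replicate 2, against 33.3 and 45.9 CPM in replicate 1. Il1b was lower in replicate 2, at 149 and 54.0 CPM, against 191 and 427 CPM in replicate 1, and so was Ptgs2, at 21.2 and 40.2 CPM, against 125 and 114 CPM. In each of these 4 genes the libraries of the replicates did not overlap; with 2 replicates and no label on what sets them apart, no test was run.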

How the data were processed

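Single-cell RNA-seq counts, natural log values and per-cell metadata were those deposited by the authors. Per the labels' protocols and the submitters' processing notes, reads were mapped to mm10 with Cell Ranger 3.0.2 and cells were handled with Seurat 3.1.1; the sources used here do not give the cell filters, doublet handling or clustering settings, and no doublet caller was run. The deposited counts are whole UMI numbers of 18825 genes in 3002 cells, and their sums per cell equalled the deposited totals in all 3002. The deposited natural log values, ln(1 + 10000 × count / total), were used only to check the counts. The deposited percent of mitochondrial UMIs and the cluster numbers were used as given; cluster names are not part of the metadata used here.

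UMIs were pooled by cluster and biological replicate and divided by the pooled total to give CPM. Log2 folds used a pseudocount of 5 CPM. A gene counted as different at 2-fold or more in both replicates with 50 CPM in the higher cluster. List medians cover all matched genes unless stated otherwise, including those below 50 CPM, which cannot count as different. List counts are likewise given out of all matched genes unless stated otherwise. No list count was tested against the shares over all genes (1.37% to 6.13%), so list counts of 1 or 2 genes are description only. Cells were thinned to 2000 UMIs without replacement (seed 1). Intervals are exact binomial 95% intervals, or for the Vsig4 ratio a 95% counting interval, and the floor is 3 counts; both cover counting error only. Depth per library of cluster 0 was 240414 to 1018676 UMIs. The counting rule was tested on simulated data, as a check of the rule and not of the genes counted here. Python 3.11.15, numpy 2.4.6, scipy 1.17.1 and pandas 2.3.3 were used.

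The cluster, the comparison clusters and the gene lists were chosen with earlier results of these data known. Genes named were the 5 label markers, the 12 leading genes higher and 8 lower than both clusters (none with over 20% of UMIs from 1 cell), up to 4 members per list with the largest folds, and up to 5 markers of each other cell type. Further genes given as examples were chosen after their values were seen. Alternatives covered the pseudocount, the minimum level, the fold, TMM scaling, thinning, weighting of cells, the deepest cells, genes per cell, libraries as samples and leaving out each library. Values of some single list members are not reported here.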

Additional observations from a re-analysis of the deposited data

Results flagged for a closer look

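In 22 of the genes named for cluster 0, 1 of the 4 libraries lay apart from the other 3 by Dixon's criterion, with 134 values tested. The usual rate of about 1 in 20 assumes independent normal values and is no guide here. A gene with UMIs in only 1 library meets the criterion by construction. Most of the 22 rest on few UMIs or on 1 cell.

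Haemoglobin transcripts stood apart in library 1-1, where 1 cell held nearly all of them. Hbb-bs was at 13132 CPM there, against 22.6 CPM in the next library. Hba-a1 was at 2666 CPM against 2.04, Hba-a2 at 1676 CPM against 4.08, and Hbb-bt at 611 CPM against 8.16. The erythroid enzyme gene Alas2 was at 20.8 CPM in the same library and 0 in the others. Jchain, the joining chain of secreted antibodies, was at 615 CPM in library 1-2 from 1 cell, and at 0 elsewhere.

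Markers of other cell types formed a further set. In library 1-2, the B cell genes Cd79a and Cd79b were at 13.3 and 14.3 CPM, with the next library at 0 and 8.49. The same library was highest for the dendritic gene Ccr7 (11.2 CPM, next 0), the endothelial gene Cdh5 (1.02, next 0), the cytotoxic gene Nkg7 (1.02, next 0) and the neutrophil genes S100a9 (55.1, next 8.84) and Retnlg (3.06, next 0). Library 1-1 was highest for the endothelial gene Vwf (16.6 CPM, next 3.06) and for Ccl21a of lymphatic endothelium (4.16, next 0). The dendritic gene Flt3 was at 1.06 CPM in library 2-1 and 0 elsewhere, and Cd3g of T cells at 2.95 CPM in library 2-2 and 0 elsewhere. Cdh5, Nkg7, Flt3 and Ccl21a each rest on 1 UMI.

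Among macrophage genes, H2-Aa was highest in library 2-2, at 3811 CPM, with the next at 3296. Lyz2, lysozyme, was lowest in library 1-1, at 11863 CPM, with the next at 13386. Rsad2 was highest in library 2-1, at 206 CPM with the next at 83.2. Il1a was at 25 CPM in library 1-1, with the next at 6.37, and Vegfa at 14.3 CPM in library 1-2, with the next at 0.982.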

How the results depend on the processing

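The counts moved with the thresholds and the scaling. A minimum of 20 CPM gave 283 genes higher than in cluster 1 and 64 higher than in cluster 2. With no minimum, 47 were higher than in both clusters, 357 higher and 282 lower than in cluster 1, and 96 higher than in cluster 2. At 1.5-fold, 88 were higher and 81 lower than in both, 376 and 304 than in cluster 1, and 116 and 173 than in cluster 2. TMM scaling left 17 higher than in both, all among the 29, and turned the balance over cluster 1 to 147 higher and 185 lower. Requiring 2-fold in each of the 4 libraries left 13 higher and 15 lower than in both, and 22 higher and 45 lower than in cluster 2. Leaving out each library in turn gave 25 to 30 genes higher and 26 to 34 lower than in both clusters, 164 to 194 and 155 to 162 than in cluster 1, and 40 to 44 and 66 to 81 than in cluster 2, but not the same genes: without library 1-2, 18 of the 29 and 23 of the 33 were shared.

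Among cells with at least 1000 genes, cluster 0 made up 25.3% of myeloid cells as a mean over libraries, against 20.1% in all cells. Without thinning, a UMI of Lyve1, Folr2, Cd163, Maf or Timd4 was found in 61.4%, 75.9%, 70.6%, 87.1% or 19.8% of cluster 0 cells, and at 1000 UMIs in 37.7%, 45.6%, 39.1%, 48.9% or 6.17%, since detection follows depth. Chosen after seeing the data, leaving out the 2 cells that held nearly all UMIs of the haemoglobin genes or of Jchain and Slpi gave 29 higher and 32 lower than in both clusters, and leaving immediate-early, heat shock and mitochondrial genes out of the total gave 38 and 31. Folds between clusters were taken within each replicate, and no model with a block was fitted, as no test was run. With 2 replicates, low genes such as Vsig4 and Timd4 are limited by counting.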

Other observations

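Over the 605 thinned cells of cluster 0, the rank correlation between the summed resident genes and the MHC class II genes was -0.24, and it was below 0 within each of the 4 libraries, from -0.49 to -0.10. Between immediate-early and heat shock genes it was 0.26, from 0.22 to 0.32 within libraries. These values are weak, and both sums of a cell share its 2000 UMIs, so they are given as a description only.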
